A study of Homo sapiens with 9 samples.

Results

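The insulin-like growth factor (IGF) genes were read in RNA sequencing of OVCA433, a human ovarian serous adenocarcinoma cell line, after knockdown of MPZL3, an immunoglobulin-domain membrane protein with a predicted role in cell adhesion. The genes were the ligands IGF1 and IGF2, the receptors IGF1R and IGF2R, and the binding proteins IGFBP2 to IGFBP7. They were chosen by symbol: 10 symbols matched 11 rows of the 58676 rows of the count table, because IGF2 has 2 rows, and 8 of the 11 were among the 15975 genes tested after a filter on low counts. All cells carried a lentiviral shRNA vector: 3 libraries came from cells with a control vector, 3 from cells with MPZL3 hairpin #1 and 3 from cells with MPZL3 hairpin #3, each set lettered A, B and C. The study's methods call the OVCA433 control of the RNA sequencing an empty vector. The same methods paragraph also writes of a scramble control group for each cell line. A supplementary legend names a scramble control for these cells too, so whether the vector carried a hairpin is not settled. The methods describe the libraries as biological replicates. Poly-A RNA was sequenced without strand information, and each library held between 16850854 and 23890191 counts.

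IGF1 and IGF2 are secreted peptides that signal through IGF1R, a receptor tyrosine kinase related to the insulin receptor. IGF2R, also the mannose 6-phosphate receptor, takes up IGF2 and delivers it to lysosomes without carrying a kinase of its own. The binding proteins hold the ligands in the fluid around cells and in the matrix, and proteases that cut them set the ligands free.

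MPZL3 (chr11:118226690-118252350, GRCh38) was measured first as a check of the labels. Levels are given as CPM (counts scaled to library size), scaled by the trimmed mean of M values. MPZL3 stood at 19.5 ± 3.42 CPM in control (SD, n = 3), 1.89 ± 0.0926 with hairpin #1 (n = 3) and 1.58 ± 0.514 with hairpin #3 (n = 3). By edgeR the log2 fold change of both hairpins together was -3.49 (SE 0.191, adjusted p = 6.87e-08), with no overlap between the 6 knockdown and the 3 control libraries.

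Epithelial marker genes also differed between the groups. The summed level of 11 ovarian serous epithelial markers ran from 11860 to 14790 CPM in control libraries, from 5342 to 6816 in those of hairpin #1 and from 5260 to 5886 in those of hairpin #3. The epithelial cadherin CDH1 lay between 270 and 281 CPM in control and at no more than 0.353 CPM in any knockdown library. Of 10 epithelial markers tested, 8 fell past both thresholds described below, which 14.7% of all tested genes passed. Among the 8 were EPCAM (56.2-fold), CLDN4 (85-fold), CLDN3 (20.9-fold), KRT19 (14.1-fold) and KRT8 (2.26-fold). PAX8 rose 2.1-fold. CDH1 and MUC16, also among the 8, passed the filter on low counts through control libraries alone. Of the 8 tested markers that reach the filter's minimum in both arms, 6 fell and 1 rose past both thresholds. The share over all tested genes that reach it in both arms was 11.0%. WT1 was at 0 in all libraries and MUC16 in all knockdown libraries. A list of 9 fibroblast markers summed to 18.7 to 22.2 CPM in control cells, 110 to 447 with hairpin #1 and 507 to 876 with hairpin #3, most of it COL1A1. All 6 tested fibroblast markers rose past both thresholds in pooled knockdown, against 14.7% of all tested genes, with COL1A1 26.6-fold and LUM 2.13-fold higher. With each hairpin alone 5 of the 6 passed both. LUM did not pass edgeR's test with hairpin #3 (adjusted p = 0.0726), nor POSTN with hairpin #1 (adjusted p = 0.1). COL1A2, COL3A1, POSTN and PDGFRB passed the filter on low counts through knockdown libraries alone, so their pooled calls support nothing. The 2 that reach the filter's minimum in both arms, COL1A1 and LUM, passed both thresholds, against 11.0% of all such genes. DCN was at 0 in all 9 libraries. Leukocyte markers summed to at most 1.35 CPM in any library. Endothelial markers summed to 0.547 to 1.02 CPM in control and 4.16 to 7.50 in knockdown, with CDH5 and KDR higher past both thresholds though tested through knockdown libraries alone, and PECAM1 at no more than 0.235 CPM. A hepatocyte list held 88.4 to 130 CPM in control and 31.8 to 58.4 in knockdown, nearly all of it SERPINA1, with TTR at 0. The part of these marker shifts in the results on the IGF genes was not tested. In bulk RNA, fewer cells with a transcript and less transcript per cell cannot be told apart.

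Against control, 4 IGF genes were higher and 1 was lower in pooled knockdown (6 against 3 libraries). IGF2, IGF1R, IGFBP4 and IGFBP6 rose and IGFBP5 fell at an adjusted p under 0.05 in edgeR's quasi-likelihood test, corrected by Benjamini-Hochberg over all tested genes. IGF2R, IGFBP3 and IGFBP7 did not pass. These 5 of 8 tested genes compare with 33.0% of all tested genes at the same threshold. The stricter rule, which also asks for a log2 fold change of 1 or more in size, left IGF2 and IGFBP5, against a background of 14.7%. IGF2 passed the filter on low counts through its knockdown libraries alone, so it had to differ and its p-values support nothing. Of the 7 others, 4 passed the adjusted p and 1 passed both thresholds, where 32.0% and 11.0% of the 13900 genes that reach the filter's minimum in both arms did. The median log2 fold change of the 8, IGF2 included, was 0.67, beside 0.0045 over all tested genes. Neither median was limited to genes that reach the filter's minimum in both arms.

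The same 5 genes separated the groups without overlap: 4 lay higher in all 6 knockdown libraries than in any control library and 1 lay lower, while 3 overlapped, and 33.1% of all tested genes did not overlap. With hairpin #1, 6 of the 8 passed the adjusted p (5 higher, 1 lower), against a background of 37.8%. With hairpin #3, 5 passed (4 higher, 1 lower), against 34.7%. Both comparisons use the same 3 control libraries. IGF2, whose difference from control the filter fixed, is among the genes counted as higher in pooled knockdown and with each hairpin. The backgrounds of these counts were not limited to genes that reach the filter's minimum in both arms. Between the hairpins, 3 passed (1 higher and 2 lower with hairpin #3), against 11.6%.

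**Figure D1:**
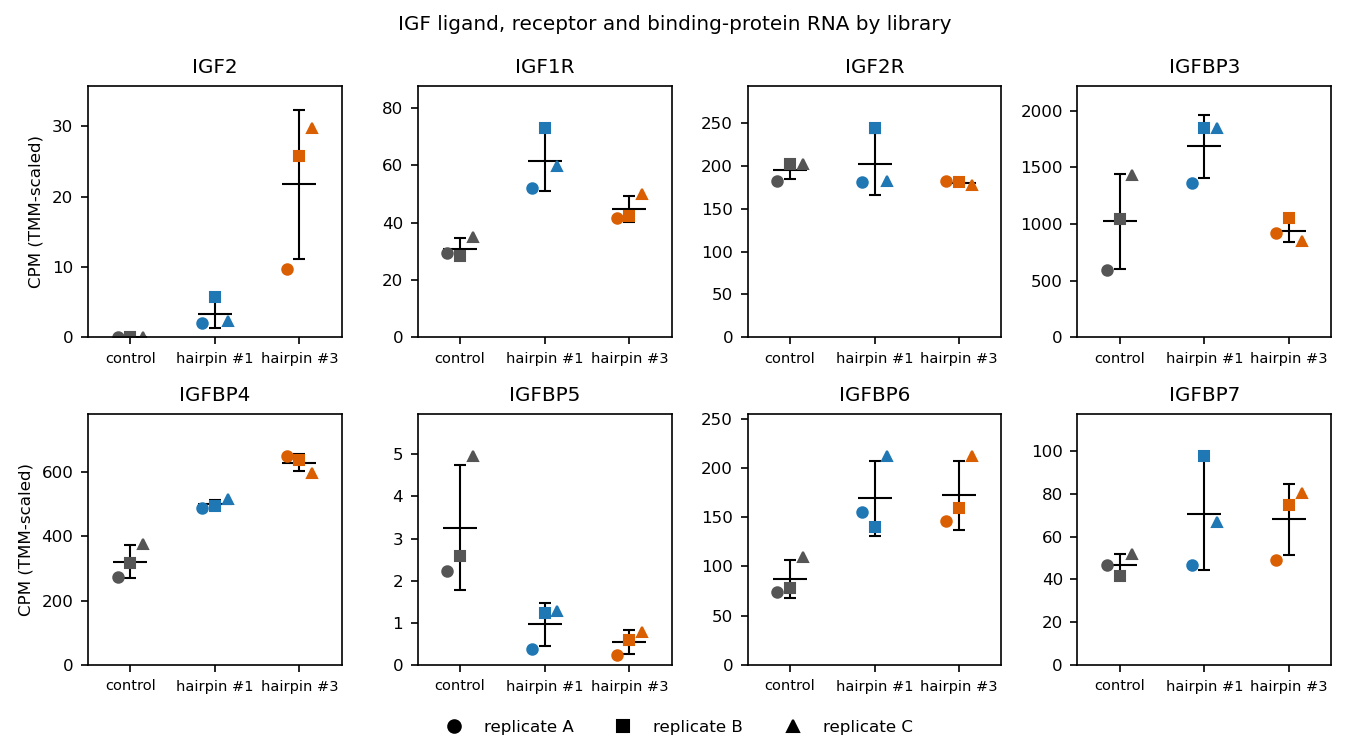
Level of the 8 tested IGF genes in each of the 9 libraries, in TMM-scaled CPM on linear axes that start at 0. Points are libraries, horizontal lines are group means and bars are ± SD (n = 3 per group). The 6 knockdown libraries lie above control for IGF2, IGF1R, IGFBP4 and IGFBP6 and below it for IGFBP5.

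Of the ligands, IGF2 was read almost solely in knockdown cells and IGF1 had 0 counts. IGF2 (ENSG00000167244, chr11:2129112-2141238, minus strand) had 0, 1 and 0 counts in control A, B and C. It had 42, 111 and 55 counts with hairpin #1 and 166, 469 and 647 with hairpin #3. All 3 hairpin #3 libraries were above all 3 hairpin #1 libraries, and both sets were above control.

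On the CPM scale, IGF2 reached 1.96, 5.65 and 2.36 with hairpin #1 and 9.77, 25.7 and 29.8 with hairpin #3. Since the control libraries held at most 1 count, the fold is a lower bound, taken against 3 counts per control library. By that bound IGF2 was at least 85.9-fold higher in pooled knockdown, at least 22.8-fold higher with hairpin #1 and at least 149-fold higher with hairpin #3. The bound ran from 13.4-fold in the lowest knockdown library to 204-fold in the highest. No p-value against control is given for it, because the filter fixed that call.

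The hairpins differed from each other in IGF2. Hairpin #3 was higher than hairpin #1 by a log2 difference of 2.73 (SE 0.417, 95% interval 1.83 to 3.63, adjusted p = 0.000899), or 6.63-fold. All 17 alternative settings kept this call. MPZL3 itself did not separate the hairpins, with a log2 difference of -0.25 (95% interval -0.81 to 0.31, adjusted p = 0.614).

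Several genes overlap IGF2, and without strand information their reads cannot be told apart from those of IGF2 where they overlap. The antisense gene IGF2-AS held 130 counts over all 9 libraries, against 1491 for IGF2. INS-IGF2 held 0 counts and the microRNA gene MIR483, which lies within IGF2, held 2. IGF2-AS was at least 7.31-fold higher in pooled knockdown by the same bound, and it too passed the filter through knockdown libraries alone. Its bound was 3.91-fold with hairpin #1 and 10.7-fold with hairpin #3, and only 1.28-fold in the lowest knockdown library. The other IGF2 row (ENSG00000284779, chr11:2129112-2158658) and IGF1 (chr12:102395867-102480645) had 0 counts in all 9 libraries. For IGF1, a count of 0 allows up to 0.177 CPM in the shallowest library, for counting error alone. The limit does not cover reads shared with HELLPAR, a gene on the other strand that overlaps the 3′ end of IGF1. HELLPAR held 374 counts over the 9 libraries. No such limit is given for the other IGF2 row, because it spans the whole of the counted IGF2 row. The 50 tested genes nearest to IGF2 on chromosome 11 had a median log2 fold change of -0.03.

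The genes whose pattern over the 9 libraries was most like that of IGF2 were SIRPB1, LAMA4 and BEX1, by the root mean square difference of centred log2 CPM. That measure was 0.219 for SIRPB1, 0.55 for LAMA4 and 0.611 for BEX1, with a median of 2.23 over all tested genes. LAMA4, a laminin chain of basement membranes, averaged 1.15 CPM in control cells, 5.28 with hairpin #1 and 49.8 with hairpin #3. SIRPB1 averaged 0.195, 3.75 and 25.2 CPM in the same order, and BEX1 0.145, 1.81 and 22.1. In control, SIRPB1 and BEX1 thus lay near the level of 3 counts per library (0.146 CPM), and IGF2 lay below it.

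Of the receptors, IGF1R rose and IGF2R did not pass the test. IGF1R (chr15:98648971-98964530) was at 29.4, 28.4 and 35.1 CPM in control A, B and C. It was at 52.1, 73.1 and 59.7 CPM with hairpin #1 and at 41.8, 42.5 and 49.99 with hairpin #3. The 3 groups did not overlap: control was lowest, hairpin #3 in the middle and hairpin #1 highest.

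The IGF1R log2 fold change was 0.78 in pooled knockdown (SE 0.173, adjusted p = 0.00445). It was 0.99 with hairpin #1 (SE 0.136, adjusted p = 6.74e-05) and 0.53 with hairpin #3 (SE 0.137, adjusted p = 0.00817). Hairpin #3 was below hairpin #1 by 0.46 on the log2 scale (95% interval -0.75 to -0.17, adjusted p = 0.0423). That last call was lost when control B, hairpin #1 B or C, or hairpin #3 A or B was left out, with adjusted p between 0.0585 and 0.168, and with the 6 compared libraries alone (0.057).

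IGF2R (chr6:159969099-160113507) was at 183, 202 and 202 CPM in control cells, 182, 245 and 182 with hairpin #1 and 183, 181 and 178 with hairpin #3. Hairpin #1 overlapped control, with hairpin #1 B the highest library, and hairpin #3 lay just below the lowest control library. The pooled log2 fold change was -0.03 (95% interval -0.27 to 0.21, adjusted p = 0.869), so a change of more than 0.27 in either direction lay outside the interval. The 50 tested genes nearest to IGF2R had a median of 0.16.

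Per kilobase of the deposited gene length, the balance of these receptors differed between the groups. IGF2R RNA was 5.77 ± 0.622 times that of IGF1R in control (SD, n = 3), 2.98 ± 0.202 times with hairpin #1 and 3.68 ± 0.396 times with hairpin #3. IGF1R RNA was 1.5 ± 0.217 times that of INSR, the insulin receptor, in control, 2.81 ± 0.136 times with hairpin #1 and 2.01 ± 0.0616 times with hairpin #3. IGF2 RNA per kilobase was 0.111 ± 0.0482 times that of IGF1R with hairpin #1. With hairpin #3 it was 1.03 ± 0.458 times, and the libraries ran from 0.505 to 1.31. In control, at 3 IGF2 counts per library, it was at most 0.0113 times. In both receptor ratios the range over the hairpin libraries lay outside the range over control, and no ratio was tested.

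**Figure D2:**
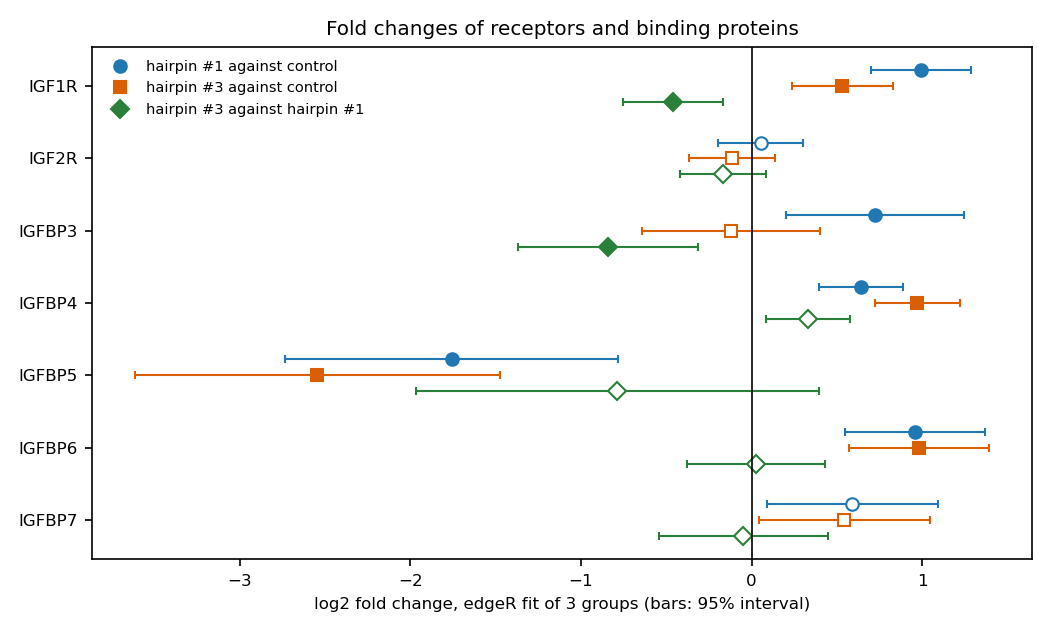
Log2 fold change of the receptors and binding proteins for hairpin #1 against control, hairpin #3 against control and hairpin #3 against hairpin #1, from the edgeR fit of 3 groups. Bars are 95% intervals and filled symbols passed an adjusted p of 0.05. IGF2 is not drawn because its control was at the floor. IGFBP4 and IGFBP6 lie to the right of 0 and IGFBP5 to the left with both hairpins, and IGFBP3 and IGF1R separate the hairpins.

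Among the binding proteins, IGFBP4 and IGFBP6 rose and IGFBP5 fell with each hairpin, and IGFBP3 differed between hairpins. The promoters of IGFBP4, IGFBP6 and IGFBP5 are shown because these binding proteins passed the test with both hairpins, in opposite directions. Each run is 300 bases of the RefSeq reference (GRCh38.p14), from 250 bases before to 50 bases after the annotated start, 5′ to 3′ on the gene's strand. Both strands were searched for 4 motifs, and capitals mark the matches. The TATA box was searched as TATAAA. The E-box was searched as CACCTG. The GC box was searched as GGGCGG. The CCAAT box was searched by the letters of its name. The IGFBP4 run is chr17:40443200-40443499 on the plus strand, the IGFBP6 run is chr12:53097417-53097716 on the plus strand and the IGFBP5 run is chr2:216695500-216695799 on the minus strand.
IGFBP4: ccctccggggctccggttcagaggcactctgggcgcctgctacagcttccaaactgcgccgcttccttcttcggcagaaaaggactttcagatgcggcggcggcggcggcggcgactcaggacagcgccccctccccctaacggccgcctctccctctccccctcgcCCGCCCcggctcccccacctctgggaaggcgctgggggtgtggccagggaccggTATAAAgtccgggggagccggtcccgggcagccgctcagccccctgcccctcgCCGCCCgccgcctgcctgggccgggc
IGFBP6: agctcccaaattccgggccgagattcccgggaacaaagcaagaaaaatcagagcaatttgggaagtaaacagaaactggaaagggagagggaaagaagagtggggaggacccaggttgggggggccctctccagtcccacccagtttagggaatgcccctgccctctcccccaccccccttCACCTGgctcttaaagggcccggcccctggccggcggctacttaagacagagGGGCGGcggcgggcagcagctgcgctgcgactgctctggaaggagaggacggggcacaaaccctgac
IGFBP5: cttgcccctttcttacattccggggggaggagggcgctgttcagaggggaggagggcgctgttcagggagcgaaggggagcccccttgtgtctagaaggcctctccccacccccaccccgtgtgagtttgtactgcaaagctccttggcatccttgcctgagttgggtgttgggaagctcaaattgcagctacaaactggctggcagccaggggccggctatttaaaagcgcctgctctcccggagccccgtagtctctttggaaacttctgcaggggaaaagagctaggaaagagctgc
The IGFBP4 run holds the TATA box at -29 and the GC box on the reverse strand at -83 and 25, counted from the start. The IGFBP6 run holds the E-box at -69 and the GC box at -17, and the IGFBP5 run holds none of the 4 motifs. Of 35116 RefSeq promoters of the same length, 11.5% hold the TATA box, 20.6% the E-box, 45% the GC box and 34.6% the CCAAT box. These matches describe letters and were not tested as sites. Of the 10 symbols, 8 had a promoter entry.

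IGFBP4, a binding protein cleaved by the protease PAPPA, was among the most abundant transcripts. IGFBP4 (chr17:40443461-40457731) was at 273, 316 and 374 CPM in control. It was at 489, 495 and 515 with hairpin #1 and at 650, 636 and 598 with hairpin #3. The 3 groups did not overlap, and the hairpin #3 libraries were the highest. The log2 fold change was 0.81 pooled (SE 0.135, adjusted p = 0.00059), 0.64 with hairpin #1 (adjusted p = 0.000607) and 0.97 with hairpin #3 (adjusted p = 2.06e-05).

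The IGFBP4 difference between hairpins was 0.33 on the log2 scale (95% interval 0.08 to 0.58, adjusted p = 0.0829) and did not pass. It passed with DESeq2 (adjusted p = 0.0388).

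IGFBP6, which prefers IGF2 over IGF1 as its ligand, rose by nearly the same amount with each hairpin. IGFBP6 (chr12:53097436-53102345) was at 74.2, 77.7 and 110 CPM in control cells, 155, 140 and 213 with hairpin #1 and 146, 159 and 212 with hairpin #3. Every knockdown library was above every control library. The log2 fold change was 0.97 pooled (SE 0.177, adjusted p = 0.00121), 0.96 with hairpin #1 (adjusted p = 0.00132) and 0.98 with hairpin #3 (adjusted p = 0.00116). The hairpins differed by 0.03, with a 95% interval of -0.38 to 0.43. The 50 tested genes nearest to it on chromosome 12 had a median of 0.23 in pooled knockdown.

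IGFBP5, which binds extracellular matrix as well as IGFs, was low in all libraries and fell. IGFBP5 (chr2:216672105-216695525) had 46, 52 and 104 counts in control. It had 8, 24 and 30 counts with hairpin #1 and 4, 11 and 17 with hairpin #3. All knockdown libraries were below all control libraries, and the hairpins overlapped.

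The pooled IGFBP5 log2 fold change was -2.09 (SE 0.434, adjusted p = 0.00287), which is 4.27-fold lower, from 3.26 ± 1.49 CPM (SD, n = 3) to 0.750 ± 0.433 (n = 6). It was -1.76 with hairpin #1 (adjusted p = 0.00743) and -2.55 with hairpin #3 (adjusted p = 0.00122). The hairpin #3 minus hairpin #1 difference was -0.79 with an interval of -1.97 to 0.39. The 3 genes most like it over the libraries were ACOT11 (root mean square difference 0.172), CDA (0.221) and F11R (0.24), against a median of 0.912. F11R, a junctional adhesion molecule, averaged 139 CPM in control cells, 55.4 with hairpin #1 and 38.5 with hairpin #3.

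IGFBP3, the main carrier of IGFs in serum, had the highest level per length of the 10 in control. IGFBP3 (chr7:45912245-45921874) was at 589, 1043 and 1433 CPM in control cells, a wide spread. It was at 1363, 1846 and 1847 with hairpin #1 and 922, 1054 and 846 with hairpin #3. Hairpin #3 lay within the control range, and hairpin #1 A lay within it too.

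For IGFBP3 the pooled value on the log2 scale was 0.36 (95% interval -0.31 to 1.03, adjusted p = 0.407). With hairpin #1 it was 0.72 (SE 0.242, adjusted p = 0.0314), a call lost without control A (0.0638), control B (0.0735), hairpin #1 B (0.0991) or hairpin #1 C (0.0882). With hairpin #3 it was -0.12 (95% interval -0.64 to 0.40, adjusted p = 0.752). That value turned to 0.20 without control C and passed at -0.37 (adjusted p = 0.0418) without all letter A libraries.

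Hairpin #3 was below hairpin #1 in IGFBP3 with no overlap, by a log2 difference of -0.84 (SE 0.243, adjusted p = 0.0397). The call was lost without control B, hairpin #1 B, hairpin #1 C, or any 1 hairpin #3 library, with adjusted p from 0.057 to 0.13, while the log2 difference stayed between -0.98 and -0.77.

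IGFBP7, a relative that binds IGFs weakly, did not pass. IGFBP7 (chr4:57030773-57110385) was at 46.5, 41.8 and 52.1 CPM in control cells, 46.6, 98.0 and 67.0 with hairpin #1 and 49.0, 74.7 and 80.6 with hairpin #3. Letter A of each hairpin lay within the control range and the other 4 knockdown libraries lay above it. The pooled log2 fold change was 0.57 (95% interval 0.10 to 1.03, adjusted p = 0.0622).

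With hairpin #1 the IGFBP7 value was 0.59 (adjusted p = 0.0617) and with hairpin #3 0.54 (adjusted p = 0.0902). The pooled IGFBP7 call turned with single settings: it passed without hairpin #1 A (0.65, adjusted p = 0.0212), without hairpin #3 A (0.65, adjusted p = 0.0286) and without all letter A libraries (0.78, adjusted p = 0.00917). It also passed with DESeq2 (adjusted p = 0.0281), with no filter on low counts (0.0258) and with the average of both hairpins (0.042). Pooled and with each hairpin, the result stayed the same in 10 of 17 alternative settings. The 50 tested genes nearest to it on chromosome 4 had a median log2 fold change of -0.30 with hairpin #1 and 0.08 with hairpin #3. The 3′ end of IGFBP7 overlaps POLR2B on the other strand, a gene with 33538 counts over the 9 libraries against 11322 for IGFBP7.

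IGFBP2 was too low to test, with 7, 8 and 3 counts in control, 11, 1 and 4 with hairpin #1 and 0 in each hairpin #3 library. A count of 0 allows up to 0.138 to 0.177 CPM there, and the control libraries were at 0.143 to 0.398.

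**Figure D3:**
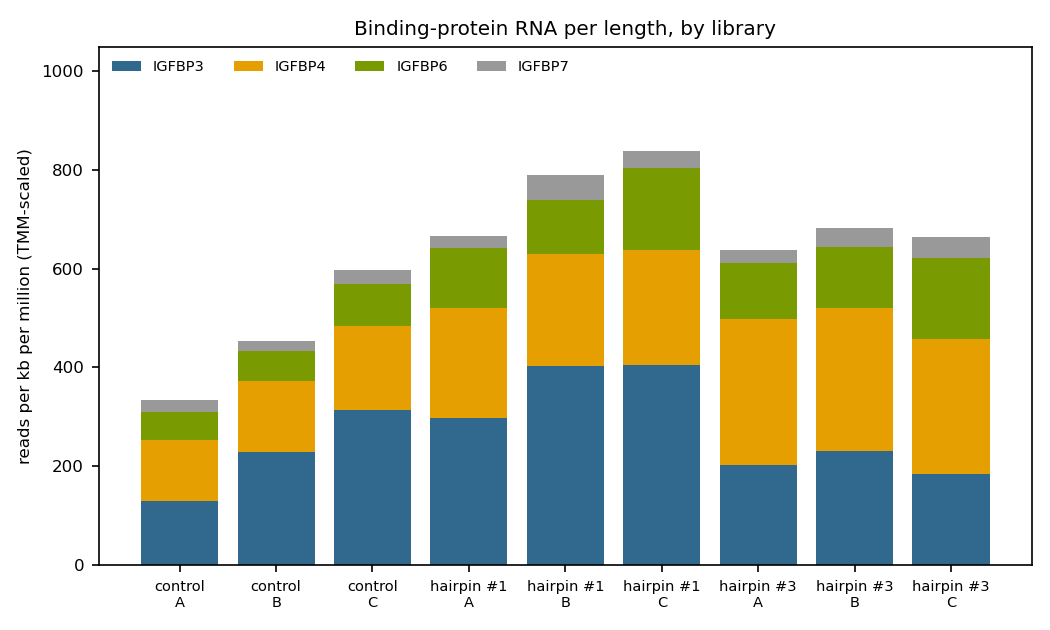
Summed read level per kilobase (CPM per kilobase) of IGFBP3, IGFBP4, IGFBP6 and IGFBP7 in each of the 9 libraries, stacked from 0. The total was 462 in control, 765 with hairpin #1 and 661 with hairpin #3 on average, IGFBP2 and IGFBP5 included, and IGFBP3 took a smaller part of it with hairpin #3.

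Per length, the make-up of binding-protein RNA differed with hairpin #3. The summed level of IGFBP2 to IGFBP7 was 462 ± 131 CPM per kilobase in control (SD, n = 3), 765 ± 89.5 with hairpin #1 and 661 ± 23 with hairpin #3. IGFBP3 made up 47 ± 7.55% of it in control, 48 ± 3.18% with hairpin #1 and 31.1 ± 2.99% with hairpin #3. IGFBP4 made up 32.3%, 29.9% and 43.2% in the same order, and IGFBP6 15%, 17.3% and 20.4%. IGFBP4 passed IGFBP3 as the largest part with hairpin #3, where IGFBP3 was 0.72 ± 0.0666 times IGFBP4, against 1.49 ± 0.411 in control. All 3 hairpin #3 libraries were outside the control range for the shares of IGFBP3 and IGFBP4, and these shares were not tested. Ranked per length among the 15975 tested genes, IGFBP3, IGFBP4 and IGFBP6 stood 126th, 219th and 561st in control and 140th, 93rd and 242nd with hairpin #3.

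Other genes of the pathway came from 3 lists. Together 44 genes were tested: 20 passed the adjusted p, 11 higher and 9 lower, and 8 passed both thresholds, against 33.0% and 14.7% of all tested genes. Of the 40 that reach the filter's minimum in both arms, 17 passed the adjusted p and 5 passed both thresholds. These shares of 42.5% and 12.5% compare with 32.0% and 11.0% of all tested genes that reach it in both arms. The median log2 fold change of the 44 was 0.10, beside 0.0045 over all tested genes. These medians too were not limited to genes that reach the minimum in both arms.

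The first list held genes that set how much IGF is free. Of 11 in the list, 7 were tested and 5 passed both thresholds, 4 higher and 1 lower, against 14.7% of all tested genes. Of the 4 tested genes that reach the filter's minimum in both arms, 3 passed both, namely PAPPA, STC1 and HTRA1. The share over all tested genes that reach it in both arms was 11.0%. PAPPA, the protease that cuts IGFBP4, was at 4.79 to 10.3 CPM in control and 27.5 to 81.9 in knockdown, with a log2 fold change of 2.69 (SE 0.383, adjusted p = 0.000189). STC1, an inhibitor of PAPPA, was at 1.91 to 3.97 CPM in control and 10.7 to 27.7 in knockdown, with a log2 fold change of 2.68 (adjusted p = 7.99e-05). The knockdown libraries of both genes lay above all control libraries.

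HTRA1, a secreted protease able to cut IGF-binding proteins, had a log2 fold change of 3.98 (adjusted p = 1.19e-06) and ADAM12, a metalloprotease that cuts IGFBP3 and IGFBP5, one of 2.93, but ADAM12 passed the filter through knockdown libraries alone. ADAM28, another metalloprotease of the list, was at 3.63 to 3.98 CPM in control and 0.0921 to 0.384 in knockdown, a log2 fold change of -3.84, and passed the filter through control libraries alone. The log2 fold change of IGFBP1 was 1.26 (adjusted p = 0.054), which passed without control B (0.0307) or hairpin #1 B (0.0315). IGFBP1 too passed the filter through knockdown libraries alone, so these p-values support nothing. The log2 fold change of STC2, another PAPPA inhibitor named after its values were seen, was -0.54 (adjusted p = 0.0528). STC2 passed with hairpin #1 (-0.63, adjusted p = 0.0361), and the pooled value passed with DESeq2 (0.0326), library totals (0.0474), no filter (0.0279), the average of both hairpins (0.0312), and without hairpin #1 C (0.0286) or hairpin #3 C (0.0156).

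The second list held receptor-proximal and PI3K-AKT signalling genes. Of 30 genes, 27 were tested, 6 rose and 6 fell at the adjusted p (44.4%, against 33.0% of all tested genes), and GRB10 alone passed both thresholds (against 14.7%). GRB10, an adaptor that binds the IGF1 and insulin receptors and restrains their signal, was at 3.93 to 5.54 CPM in control and 40 to 52.2 in knockdown, a log2 fold change of 3.27 (SE 0.148, adjusted p = 1.22e-08). IRS1, a docking protein of IGF1R, rose by 0.67 (adjusted p = 0.0091) and IRS2, its relative, fell by 0.40 on the log2 scale (adjusted p = 0.0166). The IRS1 call was lost without control B (0.0552) or control C (0.0555), and the IRS2 call without control A (0.0707) or control B (0.0766). The log2 fold change of INSR was 0.09 (95% interval -0.16 to 0.35, adjusted p = 0.592).

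**Figure D4:**
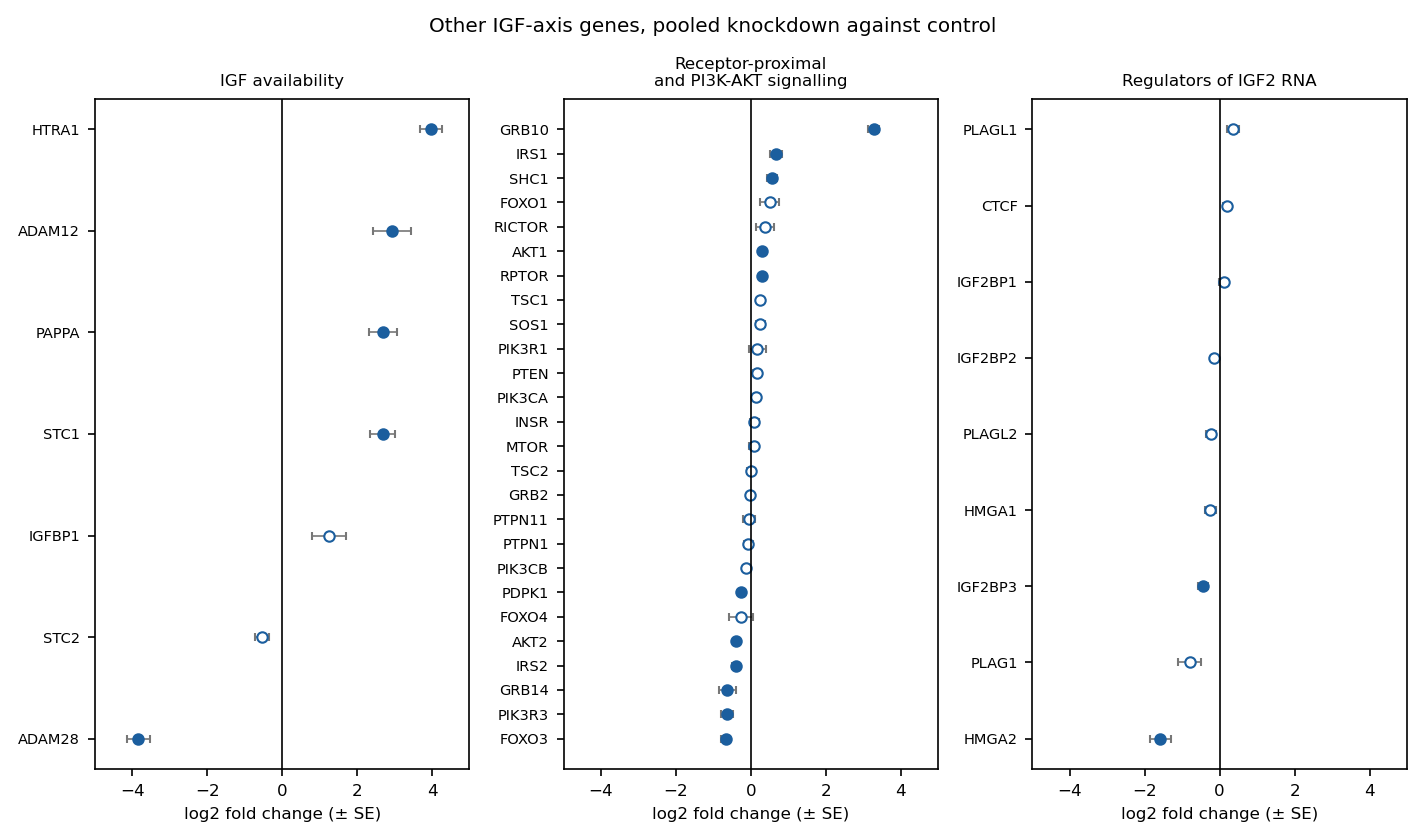
Pooled log2 fold change of tested genes of the 3 lists, with bars of ± SE and filled symbols for an adjusted p below 0.05. IGF2-AS is not drawn because its control was at the floor, and 1 signalling gene is left out. GRB10, HTRA1, ADAM12, PAPPA and STC1 lie above 2 and ADAM28 and HMGA2 below -1, and most signalling genes lie between -1 and 1.

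Of 12 regulators of IGF2 RNA, 10 were tested and 3 passed the adjusted p, 1 higher and 2 lower, a share of 30% near the 33.0% of all tested genes. Without IGF2-AS, which the filter fixed, 2 of 9 passed, against 32.0% of all genes that reach the filter's minimum in both arms. HMGA2, a chromatin protein that acts upstream of IGF2BP2 and IGF2, was at 188 to 214 CPM in control cells, 36.6 to 48.3 with hairpin #1 and 72.6 to 101 with hairpin #3. Its 3 groups did not overlap, and the log2 fold change was -1.59 pooled (SE 0.28, adjusted p = 0.000942), -2.22 with hairpin #1 and -1.15 with hairpin #3. Hairpin #3 was above hairpin #1 by 1.07 (adjusted p = 0.000202). IGF2BP3, an RNA-binding protein of IGF2 mRNA named after its values were seen, had a log2 fold change of -0.44 (adjusted p = 0.03), a call lost without any 1 control library and without hairpin #3 A or B (adjusted p from 0.0509 to 0.109). The third gene that passed was IGF2-AS, described above. H19, the non-coding RNA next to IGF2 that is read from the other parental copy, was at 0 in all 9 libraries.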

How the data were processed

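RNA was measured in 9 libraries of OVCA433 cells, 3 per group. The authors deposited raw read counts per gene with gene positions and an authors' gene length (used only for values per kilobase). The submitters' processing notes name HISAT2 2.0.5, featureCounts 1.5.0-p3 and hg38; counting settings and annotation are not given in the sources used here. Libraries were non-directional and had no molecular identifiers, so limits for counts of 0 cover counting error only.

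Counts were filtered with filterByExpr (minimum count 10, total 15; the genes kept hold 99.889% of counts), scaled by TMM over the kept genes and tested with the quasi-likelihood test of edgeR 4.0.16 (R 4.3.3), Benjamini-Hochberg adjusted over all tested genes. The pooled comparison set 6 knockdown against 3 control libraries, and each hairpin was tested in a fit of all 3 groups. P-values measure the spread between these libraries, which the methods describe as biological replicates. DESeq2 1.42.0, other scalings and filters, left-out libraries and a replicate block were tried as alternatives. CPM values were first scaled by factors over all rows, and this was changed, after they had been seen, to the factors of the fits. The script was tested on simulated data.

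Members and gene lists were chosen with earlier results of these data known. Named genes were all members, MPZL3, listed genes past both thresholds (at most 8 a list), INSR, IRS1, IRS2, IGFBP1, PAPPA and H19, and the 3 genes most like each of the at most 3 members with the largest fold change among those past both thresholds. The values of 1 gene of the signalling list are not reported here, and it stays in the counts.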

Additional observations from a re-analysis of the deposited data

Results flagged for a closer look

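The highest or lowest of the 6 knockdown libraries was set against the rest for 9 genes by the share of the whole range that its gap to the nearest library takes, with a critical value of 0.625 at the 95% level. IGF2R in hairpin #1 B had a share of 0.934, at 245 CPM against 178 to 183 in the other 5 knockdown libraries. IGFBP2 in hairpin #1 A had a share of 0.666, at 11 counts against 0 to 4. At that level about 5% of sets of libraries pass by chance. The 6 libraries hold both hairpins, which may differ in level.

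The hairpins differed from each other in 3 IGF genes by edgeR's test of the difference itself. The log2 difference, hairpin #3 minus hairpin #1, was 2.73 for IGF2 (adjusted p = 0.000899), -0.46 for IGF1R (adjusted p = 0.0423) and -0.84 for IGFBP3 (adjusted p = 0.0397). All 3 hairpin #3 libraries lay above hairpin #1 for IGF2 and below it for IGF1R and IGFBP3. The IGF2 call was kept in all 17 alternative settings, and those of IGF1R and IGFBP3 in 11 of 17 each.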

How the results depend on the processing

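Of 544 values of the IGF genes under alternative settings, 497 kept their direction and their side of the threshold, 24 newly passed, 16 no longer passed and 7 changed sign. The calls of IGF1R, IGFBP4, IGFBP5 and IGFBP6 against control held under every setting run, with the adjusted p of IGFBP5 with hairpin #1 reaching 0.049 and that of IGF1R with hairpin #3 0.0467. Without the fold threshold, the members counted rose from 2 to 5 in pooled knockdown, 2 to 6 with hairpin #1, 2 to 5 with hairpin #3 and 1 to 3 between hairpins, and the pathway genes from 8 to 20. With no filter on low counts, 2 members passed both thresholds between hairpins. Leaving out 1 library at a time, members past both thresholds ranged from 2 to 5 with hairpin #1 (5 without control C, 4 without hairpin #1 A) and from 2 to 4 with hairpin #3 (4 without control C), and members at the adjusted p between hairpins from 1 to 3 (1 without control B, hairpin #1 B or C, or hairpin #3 A or B). Pathway genes at the adjusted p ranged from 14 to 21. The cause of these shifts was not tested.

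Values that changed sign, none past the threshold there, ran with 1 library left out from -0.109 to 0.123 for IGF2R with hairpin #1, from -0.396 to 0.203 for IGFBP3 with hairpin #3, from -0.144 to 0.226 for IGFBP6 and from -0.278 to 0.266 for IGFBP7 between hairpins, and pooled from -0.006 to 0.146 for MTOR, from -0.138 to 0.094 for PTPN11 and from -0.073 to 0.032 for TSC2. TSC2 was also 0.023 without letter A and 0.002 without the filter.

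The labels do not say whether the letters pair the libraries, and the main fits leave the letter out. Same-letter correlations of deviations ran from 0.0515 to 0.466, with 7 of 9 over 0.1 and the letter A pairs between 0.401 and 0.466. Of 9 libraries, 7 correlated best with their own letter in both other groups. With the letter as a replicate block, members at the adjusted p numbered 6 pooled, 7 with hairpin #1, 6 with hairpin #3 and 4 between hairpins, and those past both thresholds stayed at 2, 2, 2 and 1. The replicate block gave 8 pathway genes past both thresholds and 21 at the adjusted p. It also let IGFBP7 pass in pooled knockdown (adjusted p = 0.0489), STC2 pass pooled (0.0279) and IGFBP4 pass between hairpins (0.015).

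Leaving out all letter A libraries was chosen after seeing the data, and gave 2 members past both thresholds and 6 at the adjusted p in pooled knockdown, and 15 pathway genes at the adjusted p. Counting only genes that reach the filter's minimum in both arms, also chosen after seeing the data, left 4 of 7 members at the adjusted p. Scaling CPM over all rows, the scaling computed first, moved no member's CPM by more than 1.33% and gave library gap shares of 0.908 for IGF2R and 0.659 for IGFBP2. Depth limits IGF1, IGFBP2 and the control level of IGF2, and the overlap with HELLPAR also limits IGF1.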
